A study of Mus musculus with 8 samples.

Results

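DNA methylation in the mouse germ line is set by a small group of enzymes and cofactors, and 10 genes from this system are described here in sorted spermatocytes with and without Cnot4. They were chosen by symbol: the maintenance pair Dnmt1 and Uhrf1, the de novo genes Dnmt3a, Dnmt3b and Dnmt3l, the oxidising enzymes Tet1, Tet2 and Tet3, and the germ cell genes Tex19.1 and Tex19.2. All 10 were found among the 23235 gene symbols with a value. RNA was sequenced from leptotene and zygotene (LZ) and from pachytene and diplotene (PD) spermatocytes of wild-type (WT) and Cnot4-null males, with 2 libraries in each of 4 groups. The Cnot4-null males were Cnot4 fl/fl;Stra8-Cre, in which Cre made under the Stra8 promoter removes exon 2 of Cnot4 in germ cells before meiosis, so that somatic cells of the testis keep the gene. All were C57BL/6, and the methods give their age as 6 weeks. Cells of both stages were isolated by flow cytometry, and no allele beyond WT is given for the controls in the sources used here. The methods call the duplicates biological replicates without naming the animals, so p-values measure the spread between these samples.

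DNMT1 copies methylation onto the new DNA strand at replication, and UHRF1 recognises the hemimethylated sites and brings DNMT1 to them. DNMT3A and DNMT3B add methylation to unmodified CG sites, and DNMT3L, which has no catalytic activity of its own, stimulates them in fetal male germ cells, where imprints and retrotransposons are methylated before birth. TET enzymes oxidise methylated cytosine as a step towards its removal, and Tex19.1 is a mammalian germ cell gene with a methylation-sensitive promoter whose protein binds the ubiquitin ligase UBR2 and takes part in retrotransposon control.

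Levels are FPKM, sequenced fragments scaled for transcript length and for the total of the library, which can be set side by side between genes. Fold changes are differences of log2(FPKM + 1), which understates how far low genes change. They were tested with limma over the 15899 symbols that exceeded 1 FPKM in some library, with 4 residual degrees of freedom, and a gene is called when its adjusted p is under 0.05. A two-sided exact permutation test of 2 libraries against 2 cannot go below 0.333, so no single-gene p of that kind is given. The study's supplement states read totals per library, which were not used here, and FPKM values give no counting error.

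Cnot4 itself measured 36.0 and 34.9 FPKM (WT) and 43.2 and 34.6 FPKM (Cnot4-null) at LZ, against 76.6 and 73.1 FPKM (WT) and 65.9 and 53.5 FPKM (Cnot4-null) at PD. Both Cnot4-null PD libraries lay below both WT PD libraries, while the LZ groups overlapped. The PD difference was -0.33 (SE 0.20; limma adjusted p = 0.192) and the LZ difference 0.12 (adjusted p = 1). A deletion limited to exon 2 cannot be seen with 1 value per gene, so the level of Cnot4 does not check the genotype labels.

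The stage labels were set against markers. All 10 pachytene and diplotene markers were called higher in WT PD than in WT LZ, where 21.6% of all genes tested were. The sum of these markers went from 242 and 347 FPKM to 12497 and 11623. In Cnot4-null cells that sum was 257 and 97.7 FPKM at LZ and 5713 and 2043 at PD, led by the lactate dehydrogenase gene Ldhc with 4585 and 1474 against 10594 and 9725 in WT PD. Between the PD groups, 0 of these markers were called higher and 4 lower, where 41.6% and 11.5% of all genes tested were. Of the leptotene and zygotene markers 6 of 8 were found. Not far from the shares of all genes, 3 of them were called higher and 1 lower in Cnot4-null PD. Their sums were 152 and 187 FPKM (WT) and 242 and 156 FPKM (Cnot4-null) at LZ, against 142 and 156 FPKM (WT) and 83.1 and 58.6 FPKM (Cnot4-null) at PD. Dmc1, the meiotic recombinase gene, led every LZ sum, at 75.7 and 91.5 FPKM (WT) and 132 and 81.8 FPKM (Cnot4-null). Spo11, the gene for the enzyme that makes meiotic DNA breaks, led every PD sum, at 134 and 147 FPKM (WT) and 56.6 and 35.2 FPKM (Cnot4-null). From LZ to PD 5 of these 6 markers were called lower and 1, Spo11, higher, in WT as in Cnot4-null cells. Over all genes tested 36.2% were lower and 21.6% higher in WT, and 18.2% lower and 27.8% higher in Cnot4-null cells.

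Against WT PD, the Cnot4-null PD libraries also differed in markers listed for other germ cells, of which the spermatogonial sums were highest at LZ. The 12 spermatogonial markers, of which 11 were called higher and 0 lower, summed to 1089 and 1013 FPKM (WT) and 1133 and 1047 FPKM (Cnot4-null) at LZ, against 78.8 and 91.2 FPKM (WT) and 618 and 655 FPKM (Cnot4-null) at PD. In Cnot4-null PD the sum was led by Stra8, the retinoic acid target that opens meiosis, in replicate 1 (228 FPKM) and by Uchl1 in replicate 2 (232 FPKM). In both WT PD libraries it was led by Id4 (49.3 and 70.9 FPKM), the list's gene that was not called. Spermatid markers, 10 of 10 called higher, summed to 1859 and 1533 FPKM (WT) and 4089 and 732 FPKM (Cnot4-null) at LZ, against 414 and 270 FPKM (WT) and 16079 and 7581 FPKM (Cnot4-null) at PD, with the protamine gene Prm1 at 7592 and 2949 in the last group. The spermatogonial and spermatid sums were thus both higher in the Cnot4-null PD libraries than in WT PD. Id4 and the leptotene and zygotene sum lay lower in Cnot4-null PD. At PD the leptotene and zygotene sum was mostly Spo11, which was called lower. Dmc1, Prdm9 and Rec8 of the same list were called higher, with Dmc1 at 8.58 and 9.22 FPKM against 1.16 and 0.59 in WT PD. Hormad2 and Mei1 were not called.

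Somatic markers differed by list, and 41.6% of all genes tested were called higher in the same comparison. The 8 Leydig cell markers, all called higher, summed to 18.0 and 11.2 FPKM (WT) and 10.9 and 19.0 FPKM (Cnot4-null) at LZ, against 117 and 7.15 FPKM (WT) and 10082 and 22299 FPKM (Cnot4-null) at PD. Insl3, the Leydig cell hormone gene, made up most of it with 9669 and 21608 FPKM, and 4 of the 8 markers were at 0 in WT PD replicate 2 while none was at 0 in Cnot4-null PD. Sertoli cell markers, 9 of 10 found, summed to 81.4 and 77.9 FPKM (WT) and 13.8 and 12.5 FPKM (Cnot4-null) at LZ, against 12.9 and 22.3 FPKM (WT) and 111 and 223 FPKM (Cnot4-null) at PD. Of the 7 Sertoli cell markers tested 4 were higher and 1 lower, a share higher not far above that of all genes, led by Clu with 94.6 and 196 FPKM. The markers called higher were Clu, Wt1, Gata4 and Aard, and Dhh was called lower. The Sertoli-defining gene Fshr was at 0 in both Cnot4-null PD libraries, and Amh was at 0 and 0.129. Both genes were also at 0 in the WT PD and WT LZ libraries, and neither was tested. Macrophage markers, 4 of 8 called higher and so near the share of all genes, summed to 3.37 and 3.05 FPKM in WT PD against 28.4 and 121 in Cnot4-null PD, led by Lyz2 with 11.1 and 40.8 (not called, limma adjusted p = 0.0595), and to 37.8 and 1.03 in WT LZ and 12.9 and 5.24 in Cnot4-null LZ. Peritubular and vascular markers, 6 of 6 tested called higher, summed to 19.3 and 2.66 FPKM in WT PD against 276 and 749 in Cnot4-null PD, led by the matrix gene Dcn with 210 and 455, and to 4.48 and 8.39 in WT LZ and 4.57 and 2.58 in Cnot4-null LZ. Of the markers called higher, Hsd3b1, Hsd3b6, Lhcgr, Gata4, Csf1r, Ptprc, Myh11, Pdgfra and Cdh5 exceeded 1 FPKM only in Cnot4-null PD. The filter that admitted them favoured their direction, so their calls add nothing to the counts of markers called. Every comparison with Cnot4-null PD below carries these marker levels with it, and their part in the members' values was not tested. In bulk libraries of this kind, fewer cells of a type and less RNA per cell cannot be told apart.

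**Figure D1:**
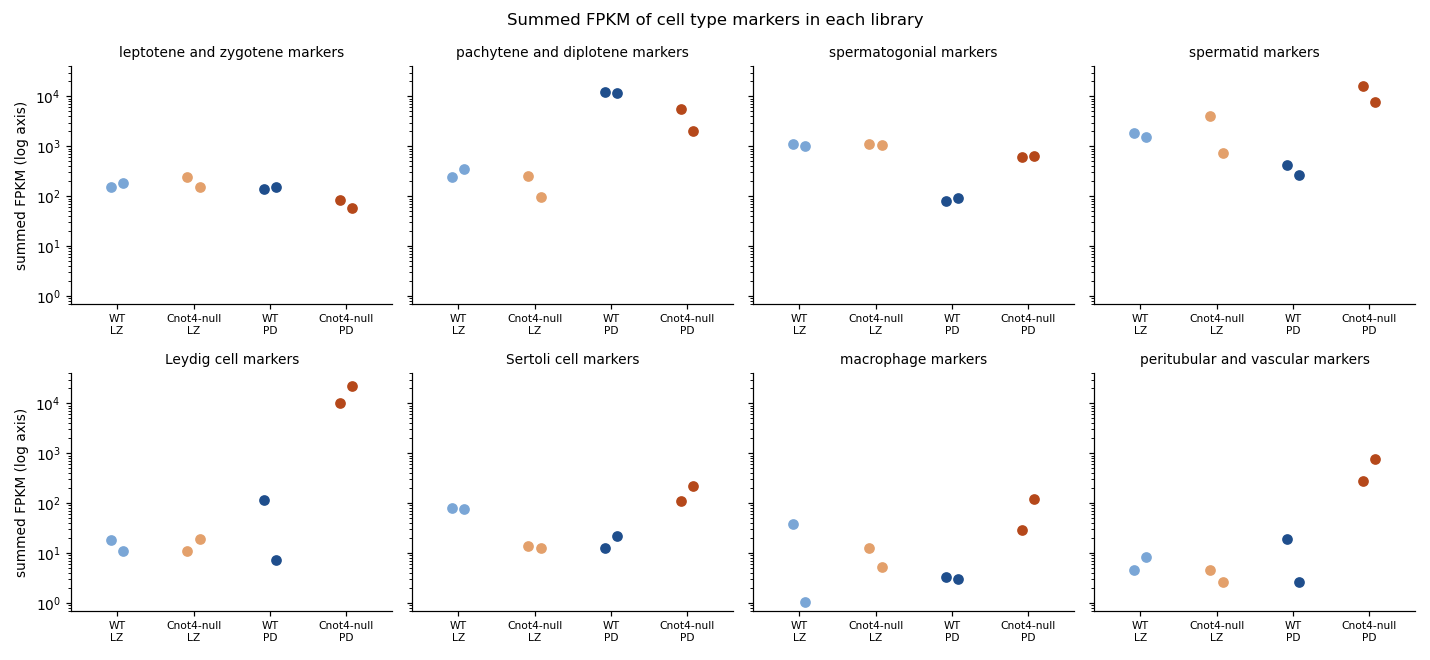
Summed FPKM of 8 marker lists (log axis) in each of the 8 libraries, 1 point per library. Leydig cell markers reach 10082 and 22299 FPKM in Cnot4-null PD against 117 and 7.15 in WT PD, and pachytene and diplotene markers 5713 and 2043 against 12497 and 11623.

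The scale of the PD comparison matters for every gene in it. Over all 15899 genes tested, the median difference between Cnot4-null and WT at PD was 0.66 as deposited, -0.10 after quantile normalisation and 0.43 after rescaling each library by its median. The share of calls that were higher was 78.3% of 8449 genes as deposited, 41.0% with quantile normalisation and 60.3% with rescaling. The median difference also moved with the filter and the pseudocount, to 0.168 without a filter on genes and 1.01 with a pseudocount of 0.1. Members are therefore given with their difference relative to the median of all genes. Over the alternatives that relative difference at PD ran from 2.38 to 3.21 for Tex19.1, 0.258 to 1.01 for Tex19.2 and -1.3 to -0.303 for Uhrf1.

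**Figure D2:**
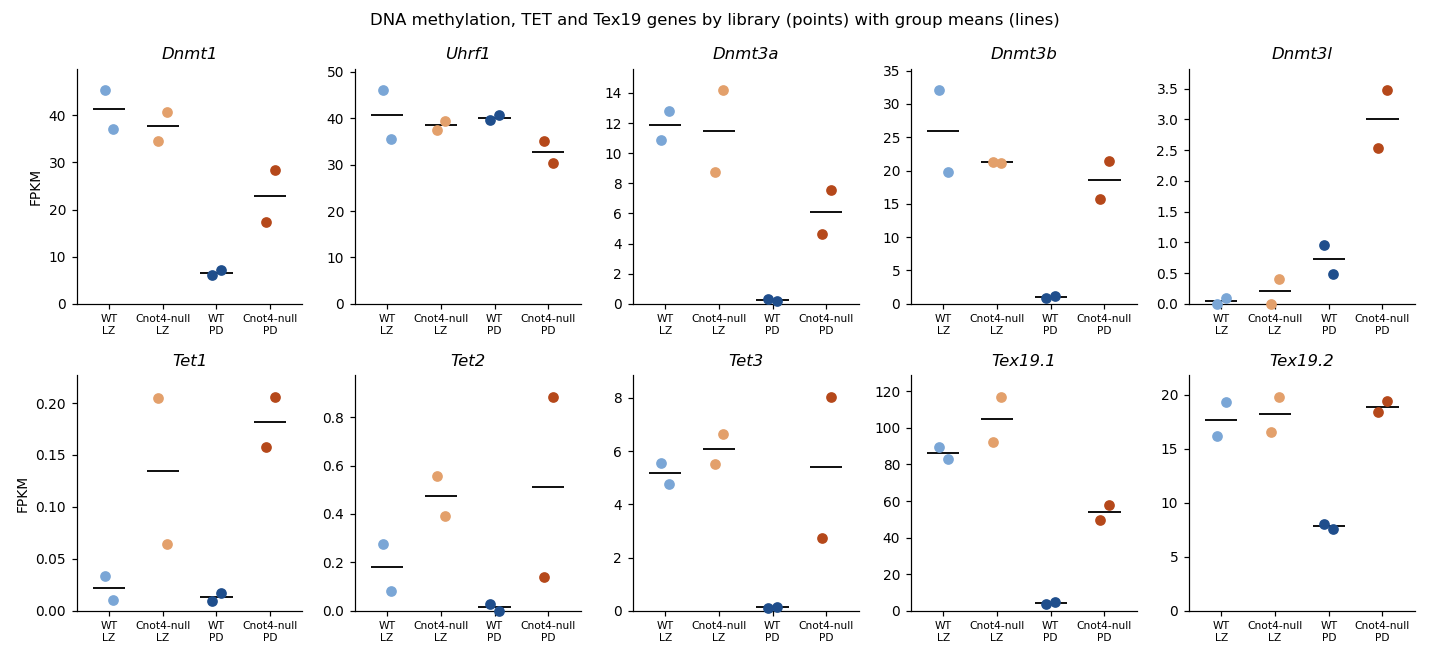
FPKM (linear axis, scaled per panel) of the 10 members in the 8 libraries, 1 point per library, with a line at each group mean. Dnmt1, Dnmt3a, Dnmt3b, Tet3, Tex19.1 and Tex19.2 are lowest in WT PD, and their Cnot4-null PD points lie above both WT PD points.

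In WT LZ the members spanned a wide range of levels. Tex19.1 stood highest at 86.2 ± 4.57 FPKM (SD, n = 2), followed by Dnmt1 at 41.3 ± 5.83 FPKM (SD, n = 2) and Uhrf1 at 40.8 ± 7.43 FPKM (SD, n = 2), which overlapped each other. Dnmt3b came next at 26.0 ± 8.70 FPKM (SD, n = 2), then Tex19.2 at 17.7 ± 2.15 FPKM (SD, n = 2), Dnmt3a at 11.9 ± 1.38 FPKM (SD, n = 2) and Tet3 at 5.17 ± 0.543 FPKM (SD, n = 2). The lower library of Dnmt3b, 19.8 FPKM, and the higher of Tex19.2, 19.3 FPKM, nearly met. Dnmt3l, Tet1 and Tet2 stayed under 1 FPKM in every LZ library. In Cnot4-null LZ the order was nearly the same, with Tex19.1 at 105 ± 17.6 FPKM (SD, n = 2) and Uhrf1 and Dnmt1 again overlapping, at 38.5 ± 1.36 and 37.7 ± 4.36 FPKM (SD, n = 2).

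In WT PD the order changed. Uhrf1 led with 40.1 ± 0.713 FPKM (SD, n = 2), Tex19.2 with 7.82 ± 0.344 FPKM (SD, n = 2) and Dnmt1 with 6.62 ± 0.755 FPKM (SD, n = 2) followed, and Tex19.1 was at 4.29 ± 0.637 FPKM (SD, n = 2). Dnmt3b at 1.02 ± 0.175 FPKM (SD, n = 2), Dnmt3a at 0.237 ± 0.0808 and Tet3 at 0.125 ± 0.0246 FPKM (SD, n = 2) were near the floor. None of these neighbours in WT PD overlapped, but Dnmt3l at 0.721 ± 0.340 FPKM (SD, n = 2) overlapped Dnmt3b. In Cnot4-null PD, Tex19.1 was again highest at 53.8 ± 5.92 FPKM (SD, n = 2), followed by Uhrf1 at 32.7 ± 3.51. Dnmt1 at 22.9 ± 7.66, Tex19.2 at 18.9 ± 0.671 and Dnmt3b at 18.6 ± 4.0 FPKM (SD, n = 2) overlapped each other. Dnmt3a at 6.11 ± 2.05, Tet3 at 5.39 ± 3.73 and Dnmt3l at 3.01 ± 0.666 FPKM (SD, n = 2) formed the lower end, where Tet3 overlapped both of the others.

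Dnmt1, the maintenance methyltransferase, lies at chr9:20711650-20757317 on the minus strand of NCBIM37 (mm9), and Uhrf1, its recruiting partner, at chr17:56442744-56462909 on the plus strand. Dnmt1 measured 45.4 and 37.2 FPKM (WT) and 34.6 and 40.7 FPKM (Cnot4-null) at LZ, against 6.09 and 7.16 FPKM (WT) and 17.4 and 28.3 FPKM (Cnot4-null) at PD. It was high in all 4 LZ libraries, low in both WT PD libraries and between these levels in Cnot4-null PD, where neither library overlapped WT PD or LZ. In WT, Dnmt1 fell by 2.47 on the log2 scale from LZ to PD (SE 0.27; limma adjusted p = 0.000211), to 16.0% of its LZ mean. In Cnot4-null cells the PD mean was 60.7% of the LZ mean, a difference of -0.73 (SE 0.27; limma adjusted p = 0.0607) that was called only without Cnot4-null PD replicate 2 (-1.06, adjusted p = 0.0138, within 0.0138 to 0.227 over the alternatives). Between genotypes at PD, Dnmt1 was higher in Cnot4-null by 1.61 (SE 0.27, 95% interval 0.98 to 2.24; limma adjusted p = 0.00288), or 0.95 relative to the median of all genes. Its adjusted p ran from 0.00205 to 0.0587 over the alternatives, and quantile normalisation (0.97, adjusted p = 0.0587) ended the call. Pachytene spermatocytes are known for an alternative first exon of Dnmt1 whose transcript is poorly translated, and 1 value per gene cannot separate it from the somatic form.

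Uhrf1 measured 46.1 and 35.6 FPKM (WT) and 37.5 and 39.4 FPKM (Cnot4-null) at LZ, against 39.6 and 40.6 FPKM (WT) and 35.2 and 30.3 FPKM (Cnot4-null) at PD. Its LZ values overlapped those of WT PD, and both Cnot4-null PD libraries lay below the other 6. The genotype difference at PD was -0.29 (SE 0.20, 95% interval -0.76 to 0.18; limma adjusted p = 0.248) and was not called as deposited. Relative to the median of all genes it was -0.95, and after rescaling by the library median it was called lower (-0.71, adjusted p = 0.0159, in a range of 0.0159 to 0.464 over the alternatives). From LZ to PD the WT difference was -0.01 (SE 0.20; limma adjusted p = 0.98), with a sign that turned under rescaling (0.36) and without WT LZ replicate 1 (0.17), and in Cnot4-null cells it was -0.23 (adjusted p = 0.37).

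Within a library, the ratio of Dnmt1 to Uhrf1 does not depend on scaling between libraries. It was 0.986 and 1.05 (WT) and 0.922 and 1.03 (Cnot4-null) at LZ, against 0.154 and 0.176 (WT) and 0.495 and 0.935 (Cnot4-null) at PD. Dnmt1 and Uhrf1 were thus near parity at LZ, Dnmt1 was the lower of the pair in WT PD, and 1 Cnot4-null PD library reached the LZ range.

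RefSeq promoters (table on GRCm38.p6, 250 bases before to 50 after the start site) exist for all 10 members, with 17 start sites, and each of the 17 was found exactly once in NCBIM37. Because methylation acts on CG sites, CG was counted in each, against a median of 7 (quartiles 3 and 20) over 32851 promoters of the same length. Uhrf1 has starts with 12 and 33 CG, and Dnmt1 has starts with 2, 12 and 33. The Dnmt1 start with 2 CG lies outside the gene, 7015 bases from the nearest annotated start. The promoter of Uhrf1 richer in CG (chr17:56443486-56443785, plus strand, NCBIM37) is shown because, among the members tested, Uhrf1 differed least between the stages in WT. That of Dnmt3b (chr2:153474935-153475234, plus strand, NCBIM37) is shown as that of a member that fell strongly. Capitals mark CG.
Uhrf1: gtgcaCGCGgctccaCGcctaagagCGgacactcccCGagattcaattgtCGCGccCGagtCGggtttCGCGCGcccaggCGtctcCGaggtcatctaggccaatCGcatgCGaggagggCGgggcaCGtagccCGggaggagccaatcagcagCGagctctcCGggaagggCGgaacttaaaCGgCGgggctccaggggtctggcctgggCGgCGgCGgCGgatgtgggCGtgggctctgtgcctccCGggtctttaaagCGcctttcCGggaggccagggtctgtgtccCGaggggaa
Dnmt3b: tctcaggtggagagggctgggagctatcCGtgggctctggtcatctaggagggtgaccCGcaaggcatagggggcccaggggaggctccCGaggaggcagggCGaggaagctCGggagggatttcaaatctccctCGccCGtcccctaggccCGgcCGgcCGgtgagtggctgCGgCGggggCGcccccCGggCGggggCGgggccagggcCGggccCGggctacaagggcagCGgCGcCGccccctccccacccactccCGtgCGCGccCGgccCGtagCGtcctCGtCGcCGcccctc
They hold 33 and 30 CG, counts that 8.56% and 11.7% of all promoters reach, so both are rich in CG although the genes followed different courses from LZ to PD.

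Dnmt3a, a de novo methyltransferase at chr12:3806007-3914443 on the plus strand, measured 10.9 and 12.8 FPKM (WT) and 8.76 and 14.2 FPKM (Cnot4-null) at LZ, against 0.295 and 0.180 FPKM (WT) and 4.66 and 7.55 FPKM (Cnot4-null) at PD. It was close to 0 in both WT PD libraries and below every LZ library in Cnot4-null PD. From LZ to PD, Dnmt3a fell by 3.37 in WT (SE 0.32; limma adjusted p = 0.000121), to 2.0% of the LZ mean. In Cnot4-null cells it stood at 53.2% of LZ, a difference of -0.81 (SE 0.32; limma adjusted p = 0.0779) that was called with quantile normalisation (-1.43, adjusted p = 0.0147) and without Cnot4-null PD replicate 2 (-1.11, adjusted p = 0.0466), within 0.0147 to 0.336 over the alternatives. At PD, Dnmt3a was higher in Cnot4-null by 2.49 (SE 0.32, 95% interval 1.73 to 3.25; limma adjusted p = 0.00103), or 1.83 relative to the median. The call held under each alternative, with adjusted p from 0.000354 to 0.0247. On the other strand it overlaps Gm10485 by 2952 bases, and without strand the reads of such pairs cannot be told apart.

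Dnmt3b, the other de novo methyltransferase, lies at chr2:153475186-153513466 on the plus strand and measured 32.1 and 19.8 FPKM (WT) and 21.3 and 21.2 FPKM (Cnot4-null) at LZ, against 0.896 and 1.14 FPKM (WT) and 15.7 and 21.4 FPKM (Cnot4-null) at PD. Cnot4-null PD replicate 2 lay inside the LZ range and replicate 1 below all 4 LZ libraries, while WT PD was far below both. In WT it fell by 3.70 from LZ to PD (SE 0.29; limma adjusted p = 5.37e-05), to 3.92% of the LZ mean. In Cnot4-null cells it was at 87.3%, a difference of -0.20 (SE 0.29; limma adjusted p = 0.585) whose sign turned without Cnot4-null PD replicate 1 (0.01). At PD, Dnmt3b was higher in Cnot4-null by 3.26 (SE 0.29, 95% interval 2.59 to 3.93; limma adjusted p = 0.000267), or 2.60 relative to the median, and 5.09% of all genes tested had a difference at least as high. Adjusted p ran from 0.000167 to 0.0131 over the alternatives, all of them calls. Gm14490, the locus of Dnmt3c, the rodent methyltransferase of young retrotransposons, starts 8922 bases away and is not among the symbols. Of the 5242 windows of 50 bases in Dnmt3b transcripts, 344 (6.56%) also occur in the Gm14490 span. A read from such a window matches both places, and per the methods only unique reads were kept. Dnmt3a and Dnmt3b share 0 such windows. On the other strand Dnmt3b overlaps 7530422B04Rik by 837 bases.

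Dnmt3l, the cofactor, at chr10:77504692-77526367 on the plus strand, measured 0 and 0.10 FPKM (WT) and 0 and 0.402 FPKM (Cnot4-null) at LZ, against 0.962 and 0.480 FPKM (WT) and 2.54 and 3.48 FPKM (Cnot4-null) at PD. It passed the filter only through the Cnot4-null PD libraries, which lay above the other 6, so it had to differ there, from WT at PD as from LZ in Cnot4-null cells. At PD the difference was 1.23 (SE 0.30, 95% interval 0.53 to 1.93; limma adjusted p = 0.0126), or 0.56 relative to the median, a size that 33.4% of all genes reached. The call was lost without WT PD replicate 2 (1.02, adjusted p = 0.0942) and with a pseudocount of 0.1 (1.97, adjusted p = 0.101), and quantile normalisation turned its sign (-0.25), the adjusted p ranging from 0.00832 to 0.51. From LZ to PD the difference in Cnot4-null cells, fixed in direction by the filter, was 1.75 (SE 0.30; limma adjusted p = 0.00338), and in WT the difference was 0.70 (SE 0.30; limma adjusted p = 0.0811). That WT difference was called with quantile normalisation (1.28, adjusted p = 0.00734), a pseudocount of 0.1 (2.47, adjusted p = 0.0454) and only the libraries compared (adjusted p = 0.039). It was also called without Cnot4-null PD replicate 1 (adjusted p = 0.0493) or replicate 2 (adjusted p = 0.0485), in a range of 0.00734 to 0.352. Dnmt3l overlaps Aire on the other strand by 1664 bases.

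The ratio of Dnmt3b to Dnmt3a within a library was 2.95 and 1.55 (WT) and 2.43 and 1.5 (Cnot4-null) at LZ, against 3.04 and 6.34 (WT) and 3.38 and 2.83 (Cnot4-null) at PD. Dnmt3b exceeded Dnmt3a in all 8 libraries, and the PD genotype groups overlapped. The promoters of Dnmt3a hold 46, 47 and 18 CG, and those of Dnmt3l 6, 4 and 3.

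Tet1 (chr10:62267318-62361866, minus strand) and Tet2 (chr3:133126643-133207354, minus strand), which oxidise methylated cytosine, were close to 0 throughout. Tet1 lay between 0.00927 and 0.206 FPKM and Tet2 between 0 and 0.884 over the 8 libraries, so neither exceeded 1 FPKM and neither was tested. Tet3, the member of the family known for oxidising the paternal genome of the zygote, lies at chr6:83312367-83391672 on the minus strand and measured 5.55 and 4.78 FPKM (WT) and 5.52 and 6.63 FPKM (Cnot4-null) at LZ, against 0.108 and 0.142 FPKM (WT) and 2.75 and 8.04 FPKM (Cnot4-null) at PD. Cnot4-null PD replicate 1 lay below the LZ libraries and replicate 2 above them, and both were above WT PD. In WT, Tet3 fell by 2.45 from LZ to PD (SE 0.41; limma adjusted p = 0.00163), to 2.42% of the LZ mean. In Cnot4-null cells it was at 88.8%, a difference of -0.28 (SE 0.41; limma adjusted p = 0.606) that became 0.36 without Cnot4-null PD replicate 1 and -0.91, called with adjusted p = 0.0232 (range 0.0232 to 0.84), without replicate 2. At PD, Tet3 was higher in Cnot4-null by 2.37 (SE 0.41, 95% interval 1.40 to 3.34; limma adjusted p = 0.00335), or 1.71 relative to the median. The call held in the 16 settings that kept Tet3, with adjusted p from 0.000766 to 0.0474. Tet3 was thus the only TET gene above 1 FPKM. Its promoter holds 22 CG against 17 for Tet1 and 57 for Tet2, a count that 0.152% of promoters reach. The RefSeq start of Tet1 lies in an intron, 7310 bases from the nearest annotated start, while those of Tet2 and Tet3 lie at an annotated start.

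Tex19.1 (chr11:121007457-121009633, plus strand) and its paralogue Tex19.2 (chr11:120977529-120979991, minus strand) are neighbours with start sites 27466 bases apart, pointing away from each other. Their coding sequences of 1053 and 951 bases are identical at 757 of 942 aligned bases (80.4%). Of 1870 windows of 50 bases in Tex19.1, however, only 50 (2.67%) occur in Tex19.2, so few reads match both genes. Their RefSeq promoters are printed because the promoter of Tex19.1 is known as a methylation-sensitive one and its neighbour serves as the comparison. They match NCBIM37 at chr11:121007207-121007506 (plus strand) and chr11:120979942-120980241 (minus strand), with CG in capitals.
Tex19.1: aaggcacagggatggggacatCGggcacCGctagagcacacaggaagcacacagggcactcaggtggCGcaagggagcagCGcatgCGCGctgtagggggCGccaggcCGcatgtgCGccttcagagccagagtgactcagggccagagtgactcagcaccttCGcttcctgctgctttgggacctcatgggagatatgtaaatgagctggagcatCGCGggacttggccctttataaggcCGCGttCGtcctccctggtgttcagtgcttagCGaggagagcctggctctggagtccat
Tex19.2: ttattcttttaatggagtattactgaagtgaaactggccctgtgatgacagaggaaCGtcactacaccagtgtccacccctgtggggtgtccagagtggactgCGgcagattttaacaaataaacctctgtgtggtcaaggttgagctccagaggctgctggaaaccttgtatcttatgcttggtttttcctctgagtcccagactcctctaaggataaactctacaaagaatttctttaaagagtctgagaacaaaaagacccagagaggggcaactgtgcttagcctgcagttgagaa
The Tex19.1 promoter holds 16 CG, which 33.0% of promoters reach, and the Tex19.2 promoter 2, which 85.9% reach. Among the 15 genes with a promoter in a list of 16 methylation-sensitive germline genes, the start richest in CG held 15 to 38 CG with a median of 23, so Tex19.1 lies near the low end of that range and Tex19.2 below it.

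**Figure D3:**
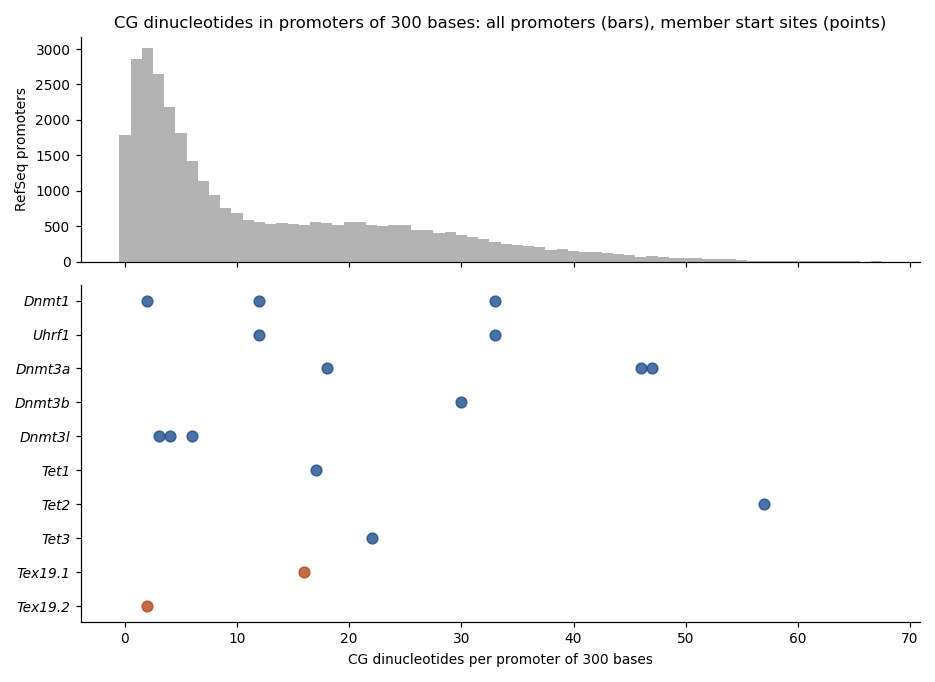
Number of CG in 300-base RefSeq promoters, as bars counting all 32851 promoters above and as 1 point per start site of each member below. Tex19.2 and Dnmt3l lie under the median of 7, and Dnmt1, Uhrf1, Dnmt3a, Dnmt3b and Tet2 each have a start with 30 or more.

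Tex19.1 measured 89.4 and 82.9 FPKM (WT) and 92.4 and 117 FPKM (Cnot4-null) at LZ, against 3.84 and 4.74 FPKM (WT) and 49.6 and 58.0 FPKM (Cnot4-null) at PD. The 4 LZ libraries were highest, WT PD was far below them, and Cnot4-null PD lay between with no overlap. In WT, Tex19.1 fell by 4.05 from LZ to PD (SE 0.21; limma adjusted p = 1.93e-05), to 4.98% of the LZ mean. It also fell in Cnot4-null cells, by 0.94 (SE 0.21; limma adjusted p = 0.00939), to 51.3%, a call lost without Cnot4-null LZ replicate 2 (-0.77, adjusted p = 0.0593) and when the fit held only the libraries compared (adjusted p = 0.055), in a range of 0.00763 to 0.0593. At PD, Tex19.1 was higher in Cnot4-null by 3.37 (SE 0.21, 95% interval 2.89 to 3.86; limma adjusted p = 0.000116), or 2.71 relative to the median, and 4.54% of genes had a difference at least as high. Over the alternatives its adjusted p lay between 8.05e-05 and 0.0131.

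Tex19.2 measured 16.2 and 19.3 FPKM (WT) and 16.5 and 19.8 FPKM (Cnot4-null) at LZ, against 8.06 and 7.58 FPKM (WT) and 18.4 and 19.4 FPKM (Cnot4-null) at PD. Only WT PD was low, and the Cnot4-null PD libraries lay inside the LZ range. In WT, Tex19.2 fell by 1.08 (SE 0.21; limma adjusted p = 0.00293), to 44.1% of its LZ mean, a call lost with quantile normalisation (-0.62, adjusted p = 0.0624, within 0.00152 to 0.0624). In Cnot4-null cells it was at 104%, a difference of 0.06 (SE 0.21; limma adjusted p = 0.829) that was -0.16 after quantile normalisation and -0.06 without Cnot4-null LZ replicate 1. At PD it was higher in Cnot4-null by 1.18 (SE 0.21, 95% interval 0.69 to 1.66; limma adjusted p = 0.00343), or 0.51 relative to the median, a size that 34.7% of genes reached. Quantile normalisation ended that call (0.50, adjusted p = 0.134, within 0.00213 to 0.134 over the alternatives). The ratio of Tex19.1 to Tex19.2 was 5.51 and 4.31 (WT) and 5.59 and 5.92 (Cnot4-null) at LZ, against 0.476 and 0.625 (WT) and 2.69 and 2.99 (Cnot4-null) at PD. Tex19.1 was thus the more abundant paralogue in 6 libraries and the less abundant in both WT PD libraries.

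**Figure D4:**
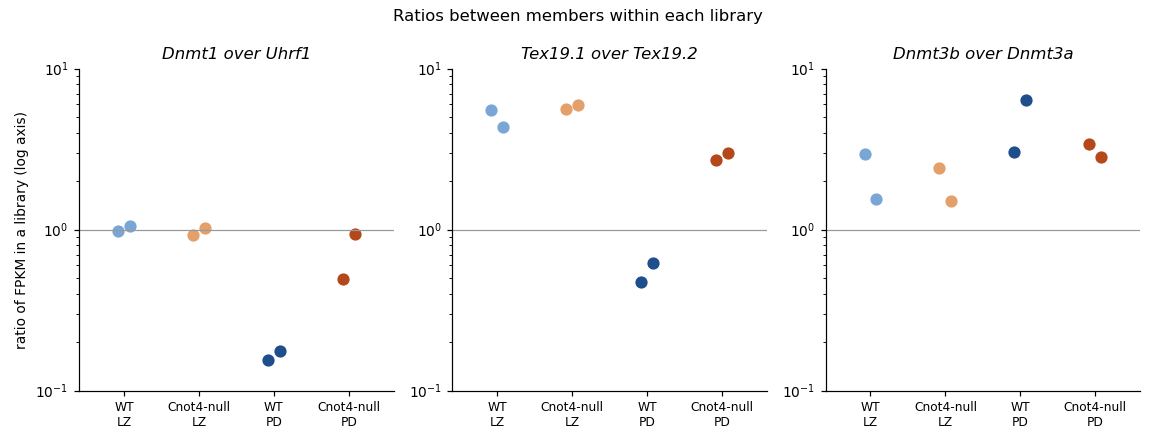
Ratio of FPKM within each library (log axis) for Dnmt1 to Uhrf1, Tex19.1 to Tex19.2 and Dnmt3b to Dnmt3a, 1 point per library, by group. The first and second ratios are lowest in WT PD, and the Cnot4-null PD points lie above both WT PD points.

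Set side by side, 7 of the 8 members tested were called higher in Cnot4-null PD than in WT PD, where 41.6% of all genes tested were called higher. Dnmt3l is among the 7, but the filter that admitted it fixed its direction, so its call adds nothing to the count. Its difference turned to -0.25 after quantile normalisation. In those 7 both Cnot4-null libraries exceeded both WT libraries, as in 58.2% of all genes tested without regard to the test, and in Uhrf1 both lay below. The median difference of the 8, with Dnmt3l included, was 1.99 against 0.66 for all genes. After quantile normalisation 4 of the 7 calls remained, those of Dnmt3a, Dnmt3b, Tet3 and Tex19.1, and after rescaling all 7 remained with Uhrf1 added as lower. Over all genes tested, 6913 were called after quantile normalisation, 41.0% of them higher, and 9152 after rescaling, 60.3% of them higher. These same Cnot4-null PD libraries held the high Leydig cell sums of 10082 and 22299 FPKM and spermatogonial sums of 618 and 655 FPKM, whose part in the members' difference was not tested. Because Dnmt3l entered only through the group where it is high and Tet1 and Tet2 were not tested, the count does not speak for the 10.

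At LZ, limma called 0 of the 8 members between genotypes, where 0.0943% of all genes tested (15) were called. An unadjusted p under 0.05 was found for 1013 of all genes and for 0 of the 8 members. Differences ran from -0.24 for Dnmt3b to 0.27 for Tex19.1 (adjusted p = 0.945), the other members having an adjusted p of 1. Tex19.1 was higher in both Cnot4-null LZ libraries than in both WT LZ libraries, and the other 7 overlapped.

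Across the stages, 6 of 8 were called lower in WT PD than in WT LZ, where 36.2% of genes were lower, all but Uhrf1 and Dnmt3l. In Cnot4-null cells 1 was called lower (Tex19.1), where 18.2% of genes were, and 1 higher (Dnmt3l), where 27.8% were, the direction of Dnmt3l being fixed by the filter that admitted it. The median over the members was -2.46 in WT and -0.25 in Cnot4-null, against -0.32 and 0.19 over all genes. These comparisons share libraries with the genotype comparison, so they are not separate evidence. With Cnot4-null LZ replicate 2 left out, or with only the libraries compared in the fit, 1 member was called in Cnot4-null cells rather than 2, and with Cnot4-null PD replicate 2 left out 5 were, Dnmt1, Dnmt3a and Tet3 being added as lower. Over all genes the calls went from 7316 to 4828, 3955 and 8333 in these 3 settings.

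The difference of the genotype effects between the stages was tested directly, and 6 of the 8 members were called for a higher effect at PD than at LZ, where 26.0% of all genes were. It was 3.50 for Dnmt3b (SE 0.40; limma adjusted p = 0.00206), 3.10 for Tex19.1 (SE 0.29; adjusted p = 0.00137) and 2.57 for Dnmt3a (SE 0.46; adjusted p = 0.00789). Tet3 at 2.18 (SE 0.58; limma adjusted p = 0.0306), Dnmt1 at 1.74 (SE 0.38; adjusted p = 0.0161) and Tex19.2 at 1.14 (SE 0.29; adjusted p = 0.0259) were also called. For Dnmt3l the difference was 1.05 (SE 0.42; limma adjusted p = 0.0978), which quantile normalisation turned to -0.45, and for Uhrf1 it was -0.22 (adjusted p = 0.569). The calls of Dnmt1, Tet3 and Tex19.2 depended on which libraries entered: 3 members were called without either Cnot4-null LZ or either WT PD library, and 4 without either WT LZ library. Calls over all genes fell with them, from 4770 to 2710 and 2299 without a Cnot4-null LZ library, 1777 and 1656 without a WT PD library, and 2569 and 3151 without a WT LZ library. Without Cnot4-null PD replicate 1 there were 7 members and 7929 of all genes, with Dnmt3l, whose direction the filter favoured, at 1.22 (adjusted p = 0.0465, within 0.0465 to 0.446). Over the alternatives the adjusted p ran from 0.00524 to 0.142 for Dnmt1, from 0.00311 to 0.243 for Tet3 and from 0.017 to 0.357 for Tex19.2. With Cnot4-null PD replicate 2 left out, Dnmt1 was still called at 1.41 (adjusted p = 0.0212), Tet3 at 1.54 (adjusted p = 0.0183) and Tex19.2 at 1.11 (adjusted p = 0.0313). Quantile normalisation left 2, Dnmt3b and Tex19.1, and rescaling 4. Over all genes, 3514 were called with quantile normalisation, 44.1% of them higher, and 5182 with rescaling, 63.3% of them higher. The call of Tet3 was also lost without a filter on genes (2.18, limma adjusted p = 0.0902) and with a pseudocount of 5 (0.85, adjusted p = 0.103). The median of all genes in this comparison was 0.64 as deposited and -0.13 after quantile normalisation.

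**Figure D5:**
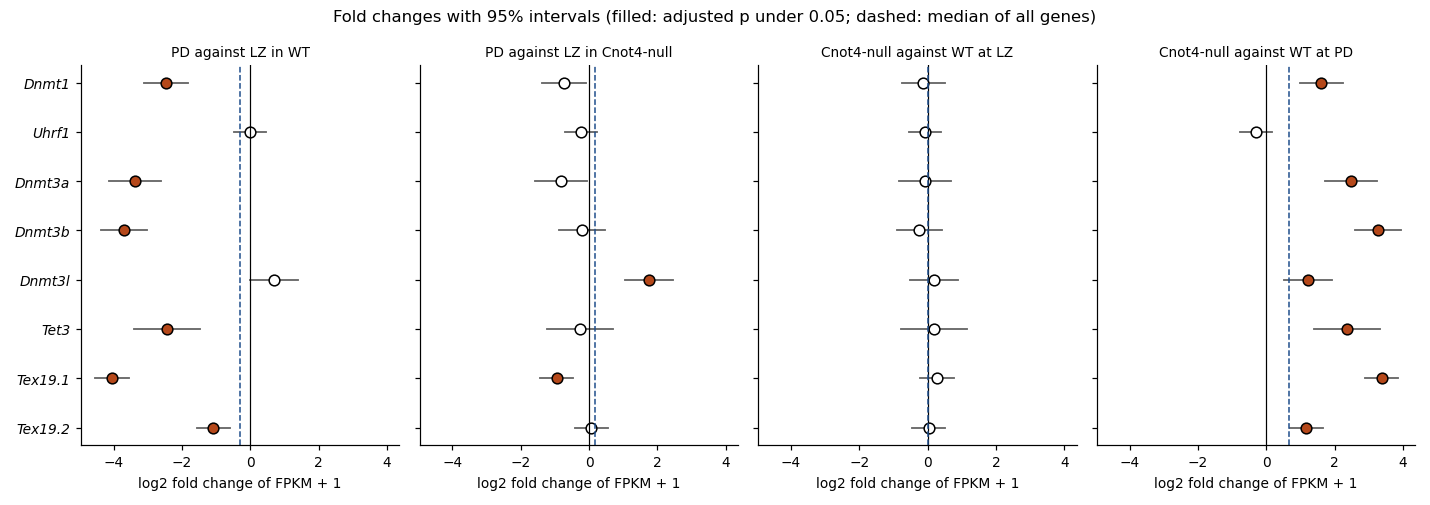
Differences of log2(FPKM + 1) with 95% intervals for the 8 members tested, 1 panel per comparison, filled where the adjusted p is under 0.05, with a dashed line at the median of all genes. Differences at LZ lie around 0 and those at PD reach 3.37 for Tex19.1, and after quantile normalisation the PD difference of Dnmt3l turns to -0.25.

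Partners of the methylation machinery were followed in a list of 20 genes, of which 19 were found and tested. In Cnot4-null PD 12 were called higher and 1 lower against WT PD, where 41.6% and 11.5% of all genes tested were, with a median of 0.82 against 0.66 for all genes. Hells, the chromatin remodeller needed for methylation of repeats, with the highest mean of the list over the 8 libraries but not the highest level in WT PD, measured 267 and 251 FPKM (WT) and 357 and 270 FPKM (Cnot4-null) at LZ, against 15.0 and 14.7 FPKM (WT) and 74.8 and 72.6 FPKM (Cnot4-null) at PD. Like Dnmt1 it was high at LZ, low in WT PD and between in Cnot4-null PD (2.24 at PD, SE 0.19; limma adjusted p = 0.000254). Zbtb33, which encodes the methyl-CG reader Kaiso, measured 0.378 and 0.148 FPKM in WT PD against 5.76 and 8.21 in Cnot4-null PD (2.65, SE 0.26; limma adjusted p = 0.000366). Dppa3, a regulator of UHRF1 and a protector of methylation in the early embryo, had values of 7.58 and 12.3 FPKM in Cnot4-null PD and is listed at 0 in each WT PD library (limma adjusted p = 0.000583). In WT, 2 of the 19 were higher and 10 lower at PD than at LZ, where 21.6% and 36.2% of all genes were, and in Cnot4-null cells 3 were higher and 3 lower, where 27.8% and 18.2% were.

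A list of 20 TET partners and base excision repair genes had 17 tested, with 9 called higher and 3 called lower in Cnot4-null PD, against 41.6% and 11.5% of all genes, and a median of 0.69 against 0.66. Gadd45g, a stress-response gene tied to active demethylation, measured 0.292 and 0.402 FPKM in WT PD against 28.7 and 94.9 in Cnot4-null PD (5.31, SE 0.54; limma adjusted p = 0.000406). Cxxc5, a CG-binding zinc finger gene, measured 1.42 and 0.964 FPKM in WT PD against 38.4 and 32.9 in Cnot4-null PD (4.07, SE 0.23; limma adjusted p = 0.000108). At LZ, Cxxc5 had 12.3 and 9.82 FPKM in WT and 16.7 in each Cnot4-null library, so its Cnot4-null PD values exceeded all LZ values. Idh2, the mitochondrial isocitrate dehydrogenase, measured 1.28 and 0.313 FPKM in WT PD against 9.22 and 25.4 in Cnot4-null PD (3.25, SE 0.65; limma adjusted p = 0.00594). The gene most abundant on average, Polb, the repair polymerase, went the other way, with 269 and 259 FPKM in WT PD against 160 and 96.6 in Cnot4-null PD (-1.08, SE 0.25; limma adjusted p = 0.0112).

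The 16 methylation-sensitive germline genes moved in both directions. In Cnot4-null PD 4 were higher, 5 lower and 7 not called, against 41.6% higher and 11.5% lower over all genes, with a median of -0.22 against 0.66 for all genes. Taf7l, a germ cell subunit of the TFIID complex, measured 383 and 430 FPKM in WT LZ, and 4.88 and 4.34 in WT PD against 95.2 and 110 in Cnot4-null PD (4.20, SE 0.21; limma adjusted p = 9.49e-05). Dazl, a translational regulator of germ cells, measured 809 and 848 FPKM in WT LZ, and 34.9 and 32.9 in WT PD against 200 and 221 in Cnot4-null PD (2.60, SE 0.20; limma adjusted p = 0.000192). Fkbp6, a gene of the piRNA pathway, measured 382 and 384 FPKM in WT LZ, and 33.4 and 28.2 FPKM in WT PD against 133 and 140 in Cnot4-null PD (2.12, SE 0.17; limma adjusted p = 0.000227). These 3 shared the course of Tex19.1, high at LZ, low in WT PD and between in Cnot4-null PD. They were named as the largest called PD changes of the list, so a large PD difference came with the choice. Sycp3, which encodes a protein of the chromosome axis and has the highest mean of the list over the 8 libraries but not the highest level in the PD groups, measured 785 and 799 FPKM in WT PD against 473 and 260 in Cnot4-null PD (-1.17, SE 0.40; limma adjusted p = 0.0409). From LZ to PD 3 of the 16 were higher and 8 lower in WT, and 1 was higher and 10 lower in Cnot4-null cells. Over all genes tested 21.6% were higher and 36.2% lower in WT, and 27.8% higher and 18.2% lower in Cnot4-null cells.

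Of 4 TEX19 partners, 2 were called higher in Cnot4-null PD and 0 lower by limma (2 of the 4 had an unadjusted p under 0.05), a share near the 41.6% of all genes called higher. Ubr2, the ubiquitin ligase bound by TEX19.1, measured 13.8 and 13.7 FPKM (WT) and 18.5 and 14.8 FPKM (Cnot4-null) at LZ, against 0.430 and 0.347 FPKM (WT) and 5.88 and 11.6 FPKM (Cnot4-null) at PD. Like Tex19.1 it was low only in WT PD and between in Cnot4-null PD (2.74 at PD, SE 0.32; limma adjusted p = 0.000677). Ube2a, a ubiquitin-conjugating enzyme that works with UBR2, measured 1.06 and 1.29 FPKM in WT PD against 20.8 and 19.4 in Cnot4-null PD (3.28, SE 0.43; limma adjusted p = 0.00106). Its close relative Ube2b, the most abundant of the 4, measured 121 and 143 FPKM in WT PD against 113 and 119 in Cnot4-null PD (-0.18, SE 0.19; limma adjusted p = 0.425). At LZ limma called 0 genes in each of these 4 lists. An unadjusted p under 0.05 was found for 0 methylation partners, 3 TET partners and repair genes, 1 germline gene and 0 TEX19 partners. Over all 15899 genes tested, 15 were called at LZ and 1013 had an unadjusted p under 0.05.

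Genes with the most similar course over the 8 libraries were sought among 9347 genes of at least 5 FPKM on average, by the root mean square distance of centred log2(FPKM + 1) values. Dnmt3b was closest to Hyal2 (0.12), Mex3a (0.14) and Bmp7 (0.16), and Dnmt1 to Gjc1 (0.13), BC003965 (0.14) and Eif5a2 (0.14). Uhrf1, the steadiest of the members tested, lay nearest to Terf2 (0.05), Bub1b (0.08) and Dhx16 (0.09). None of these neighbours was another member.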

How the data were processed

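The authors deposited 1 FPKM value per gene symbol and library. Per their methods, reads trimmed to 50 bases were aligned with TopHat2 2.1.1 to mm9, unique reads were kept, and FPKM were computed with Cufflinks 2.2.1 on UCSC gene models. The labels describe Trizol extraction and TruSeq libraries and the methods Smart-Seq2 on sorted cells, and which was used is not determined here. Read totals stated in the study's supplement were not used here, and FPKM give no counting error. Here, limma 3.58.1 in R 4.3.3 fitted 4 group means to log2(FPKM + 1) of 15899 symbols above 1 FPKM in any library, with eBayes and a trend (residual degrees of freedom 4), and Benjamini-Hochberg adjustment was made within each of 5 contrasts. The fit was tested on simulated data. Tables and figures used Python 3.11.15, numpy 2.4.6, pandas 2.3.3 and matplotlib 3.10.9.

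The named genes are the members, Cnot4, the 3 largest called PD changes and the most abundant gene of each list, and the nearest 3 genes of Dnmt1, Uhrf1 and Dnmt3b (those of Tex19.1 are not reported here). The members and lists were chosen with earlier results of these data known. Alternatives were other pseudocounts and filters, quantile normalisation, rescaling to the same median, fits of only the libraries compared, a replicate block and leaving out each library. Positions and windows come from GENCODE vM1 on NCBIM37, and promoters from RefSeq.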

Additional observations from a re-analysis of the deposited data

Results flagged for a closer look

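In 6 of the 8 members tested the genotype difference itself was called higher at PD than at LZ by the direct test of that difference (PD minus LZ, log2 scale), as in 26.0% of all genes tested, whose median was 0.64. It was 1.74 for Dnmt1, 2.57 for Dnmt3a and 3.50 for Dnmt3b. For Tet3 it was 2.18, for Tex19.1 3.10 and for Tex19.2 1.14. Quantile normalisation left 2 calls, those of Dnmt3b and Tex19.1, and so also ended that of Dnmt3a (1.36, limma adjusted p = 0.0956). The calls of Dnmt1, Tet3 and Tex19.2 depended in addition on which libraries entered.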

How the results depend on the processing

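Of 662 values of the members over 17 settings, 603 kept their direction and side of the threshold, 31 lost a call, 11 gained one and 17 changed sign, and 24 of the 31 lost calls were in the difference of genotype effects. The cause was not tested. Quantile normalisation left 4 members called at PD and 2 in the difference of genotype effects. From LZ to PD in Cnot4-null cells 1 was called with a mean FPKM of at least 5, a filter that removed Dnmt3l and Tet3, and 1 with only the libraries compared. Over all genes the calls went from 7316 to 5179 and 3955 in these settings. Leaving out 1 library gave 6 to 7 members called at PD, 0 at LZ, 6 to 7 from LZ to PD in WT, 1 to 5 in Cnot4-null cells and 3 to 7 in the difference of genotype effects. At LZ, where no setting gave a call, leaving out 1 library moved Dnmt1 from -0.268 to 0.0139, Uhrf1 from -0.254 to 0.110, Dnmt3a from -0.394 to 0.243 (0.0345 without WT LZ replicate 2), Dnmt3b from -0.574 to 0.0957, Dnmt3l from -0.0690 to 0.418 and Tex19.2 from -0.0912 to 0.157 (-0.0845 without WT LZ replicate 1). In the WT stage comparison it moved Uhrf1 from -0.197 to 0.167 (0.00297 without WT PD replicate 1), and rescaling gave 0.364. In the Cnot4-null stage comparison it moved Dnmt3b from -0.412 to 0.00778, Tet3 from -0.909 to 0.358 and Tex19.2 from -0.0638 to 0.184, and quantile normalisation gave -0.163 for Tex19.2. Dnmt3l turned with quantile normalisation at PD (-0.251) and in the difference of genotype effects (-0.453). With 1 library left, a group is assumed to vary like the others. The member counts with 1 library left out therefore do not show by themselves how steady the calls are. At PD the number of all genes called moved in both directions in the same settings.

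With the replicate number as a block, 7 members were called at PD, 0 at LZ, 6 from LZ to PD in WT, 2 in Cnot4-null cells and 6 in the difference of genotype effects, and over all genes 8298, 16, 9085, 7128 and 4355. Correlations of the deviations of same-numbered libraries ran from -0.0651 to 0.194, the highest between Cnot4-null LZ and Cnot4-null PD. With 2 libraries per group and no animals named, they cannot decide whether same-numbered libraries share an animal or a preparation. Values near 0 FPKM, as for Tet1, Tet2 and Dnmt3l, carry no counting error here.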
